A study of Mus musculus with 24 samples.

Results

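The genes described here are 10 members of the mouse myosin light chain group: 5 essential light chains (Myl1, Myl3, Myl4, Myl6, and Myl6b), 3 regulatory light chains (Mylpf, Myl2, and Myl9), and the light chain kinases Mylk and Mylk2. They were taken by gene name from the 56941 genes listed in the deposited tables, and all 10 passed the filter on low counts that left 13315 genes for testing. The samples were muscle tissues grown from 1 line of C2C12 mouse myoblasts, which fuse into contractile myotubes. All groups carried the ChR2::tdTomato genotype, which is a light-gated ion channel joined to a red fluorescent protein, so the unstimulated controls carried it too. The cells were grown on fibrin hydrogel and kept for about 2 weeks in differentiation medium (DMEM, horse serum at 10%, and IGF-1 at 50 ng/ml), and the stimulated groups received 60 min of light a day at 1, 4, or 10 Hz. There were 6 libraries in each of the 4 groups and 24 in all, which the study calls biological replicates. Its text says that unstimulated tissues also twitch spontaneously, so a control was not a silent tissue.

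Myosin, the motor of the sarcomere, is a pair of heavy chains, and the neck of each heavy chain is wrapped by 1 essential and 1 regulatory light chain. Fast fibers of adult skeletal muscle use the essential light chain made from Myl1 and the regulatory light chain made from Mylpf, and slow fibers and the ventricle of the heart use Myl3 and Myl2. Myl4 encodes the essential light chain of embryonic muscle and of the atrium. Myl6 and Myl9 serve non-muscle and smooth muscle myosin, and Myl6b is expressed in slow skeletal muscle and in non-muscle cells. The kinases add a phosphate to the regulatory light chain when calcium-bound calmodulin activates them. Mylk2 is the skeletal muscle kinase, and Mylk is the kinase of smooth muscle and non-muscle cells.

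The sequences just before the start sites of 4 light chain genes are shown because the comparisons set these genes against each other, the embryonic Myl4 against the fast Myl1 and the slow Myl2 against the fast Mylpf. Each is the 250 bases before the start of the Ensembl canonical transcript in the mouse genome GRCm39 (GENCODE M39 annotation), 5′ to 3′ on the strand of the gene, and capitals mark matches to the motifs searched. The windows are chr1:66984403-66984652 on the minus strand for Myl1, chr11:104467814-104468063 on the plus strand for Myl4, chr7:126810530-126810779 on the plus strand for Mylpf, and chr5:122238598-122238847 on the plus strand for Myl2. The annotated genes Myl1, Myl4, and Mylpf reach further upstream than these starts. Their windows therefore lie wholly or mostly inside the gene and need not be its only start region.
Myl1: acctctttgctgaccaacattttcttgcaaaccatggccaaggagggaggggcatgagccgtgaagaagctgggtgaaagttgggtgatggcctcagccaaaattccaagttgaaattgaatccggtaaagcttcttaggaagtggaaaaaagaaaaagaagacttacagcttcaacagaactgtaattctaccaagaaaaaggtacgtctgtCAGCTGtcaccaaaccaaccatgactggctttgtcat
Myl4: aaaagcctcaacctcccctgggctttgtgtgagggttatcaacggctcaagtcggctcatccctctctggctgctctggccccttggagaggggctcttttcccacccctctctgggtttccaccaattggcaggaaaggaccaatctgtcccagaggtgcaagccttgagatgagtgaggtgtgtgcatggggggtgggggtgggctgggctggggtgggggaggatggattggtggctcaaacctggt
Mylpf: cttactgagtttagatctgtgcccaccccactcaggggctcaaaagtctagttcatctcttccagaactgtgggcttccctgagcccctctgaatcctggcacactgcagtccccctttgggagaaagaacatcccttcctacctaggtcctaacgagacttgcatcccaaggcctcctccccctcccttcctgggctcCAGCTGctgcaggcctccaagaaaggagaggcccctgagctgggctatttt
Myl2: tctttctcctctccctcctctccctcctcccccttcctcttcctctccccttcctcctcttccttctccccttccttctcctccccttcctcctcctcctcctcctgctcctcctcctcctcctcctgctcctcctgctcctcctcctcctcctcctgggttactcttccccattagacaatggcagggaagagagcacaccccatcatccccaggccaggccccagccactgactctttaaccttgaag

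Motifs that muscle transcription factors are known to bind were searched on both strands. They were the E-boxes CAGCTG and CACCTG, the MCAT element CATTCC, the CArG box, and the MEF2 box, and no matches in the 10 windows overlapped each other. Myl1 held CAGCTG at 37 to 32 bases before its start, and Mylpf held it at 51 to 46 bases before its start. These were the 2 of 10 windows with that E-box, against 11.9% of 21770 windows before protein-coding genes. CACCTG was found for Myl3 and Mylk2 and in 17.7% of all windows. CATTCC was found for Myl3, Myl6b, and Mylk and in 12.1% of all windows. The CArG box was found for Myl3 and in 1.40% of all windows, and no window of these genes held the MEF2 box, which 2.79% of all windows held. The printed windows of Myl4 and Myl2 held none of these letters, which says nothing about the factors themselves.

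Across libraries, total estimated counts ran from 8052369 to 18159144. The label of muscle fitted the markers fixed for myotubes, whose summed level over 13 genes was 11015 to 19527 TPM (transcripts per 1000000, a level divided by transcript length). The 6 myoblast markers summed to 814 to 925 TPM without stimulation, 568 to 733 TPM at 1 Hz, 523 to 707 TPM at 4 Hz, and 830 to 896 TPM at 10 Hz, so the 1 Hz and 4 Hz libraries did not overlap with the controls. These markers moved in both directions. Mean Myod1 was 193 TPM in the controls, 63.5 TPM at 1 Hz, and 46.0 TPM at 4 Hz. Mean Myf5 was 9.96 TPM in the controls and 21.4 TPM at 1 Hz. In edgeR, 1 marker was higher and 3 lower at 1 Hz, and 3 and 3 at 4 Hz. The median difference of all genes on log2(TPM + 1) was -0.14 at 1 Hz and -0.21 at 4 Hz. Whether the number of myoblasts differed was not tested. The summed level was 1334 to 2265 TPM for 8 smooth muscle markers (of which Des is also a myotube marker), 44.9 to 92.7 TPM for 8 cardiac markers, 356 to 738 TPM for 8 fibroblast markers, and 18.2 to 45.0 TPM for 6 cell cycle markers. Of the defining markers, the atrial light chain Myl7 and the fibroblast factor Tcf21 were listed at 0 in all 24 libraries, Nppa in 22, and Myocd in 15. The relative mean transcript length of a library was computed from counts divided by TPM. Controls had 1.003 to 1.062, the 1 Hz libraries 0.817 to 1.048, the 4 Hz libraries 0.784 to 0.981, and the 10 Hz libraries 0.953 to 1.071. It was under 0.9 in 5 libraries, which were 1 Hz replicates 4 and 6 and 4 Hz replicates 1, 3, and 4. The light chain transcripts are short, and the results are therefore given with and without these libraries and on scales that treat length differently.

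In the unstimulated controls, the fast light chains were the most abundant members and the kinases were the least. Mean levels were 5941 ± 490 TPM (SD, n = 6) for Myl1 and 3621 ± 273 TPM for Mylpf. They were 1553 ± 142 TPM for the embryonic Myl4 and 1242 ± 76.8 TPM for the non-muscle Myl6. Both slow light chains lay far lower, Myl2 at 119 ± 13.2 TPM and Myl3 at 5.69 ± 1.29 TPM, and between them in the order came Myl9 at 15.1 ± 3.95 TPM. Myl6b stood at 257 ± 19.9 TPM, between Myl6 and Myl2. The kinases Mylk2 and Mylk stood at 4.55 ± 0.737 TPM and 1.01 ± 0.150 TPM. Neighbours in this order did not overlap over the 6 control libraries, apart from Myl3 and Mylk2, whose ranges were 3.61 to 7.40 TPM and 3.30 to 5.27 TPM.

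**Figure D1:**
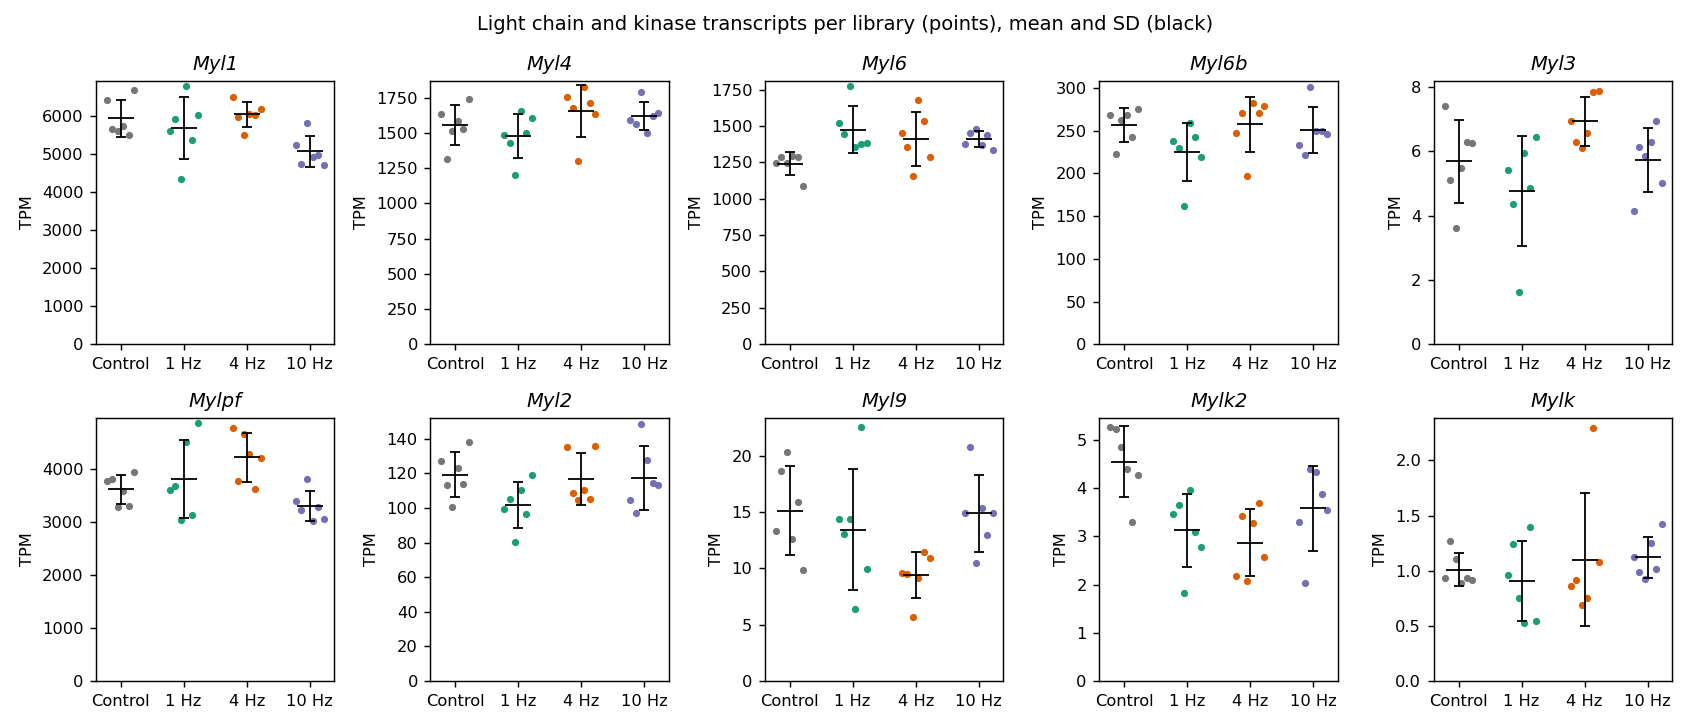
Level of each light chain and kinase gene in TPM (y axis, from 0, a separate scale for each gene) in the 6 libraries of the control, 1 Hz, 4 Hz, and 10 Hz conditions (points), with the mean and SD in black. Myl1 reached 5505 to 6689 TPM in the controls and Mylk 0.892 to 1.27 TPM, and the 4 conditions overlapped for most genes on this scale.

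Among the essential light chains, Myl1 made up 66.0% ± 1.60 (SD, n = 6) of the summed TPM in the controls, Myl4 17.2% ± 0.921, Myl6 13.9% ± 1.54, Myl6b 2.86% ± 0.156, and the slow Myl3 0.0630% ± 0.0125. Among the 3 regulatory light chain members, Mylpf made up 96.4% ± 0.142, Myl2 3.17% ± 0.215, and Myl9 0.409% ± 0.126 of their own sum. That sum leaves out the regulatory light chains Myl12a and Myl12b, which had 1238 ± 75.9 and 216 ± 13.3 TPM in the controls. Myl12a thus lay below Mylpf and above Myl2. Among the members, the fast isoform was the main transcript of both kinds. At 10 Hz the share of Myl1 was 59.4 to 62.0% and lay below its control range of 64.3 to 68.2%, and the share of Myl4 was 18.6 to 20.6% and lay above its control range of 15.5 to 17.9%. At 1 Hz and 4 Hz the mean share of Myl1 was 63.8% and 64.6%, and that of Myl4 was 16.7% and 17.6%, and these ranges overlapped with the controls. The shares were not tested on their own, since the ratios of the genes were.

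The first comparison was between each frequency and the unstimulated controls. At 1 Hz the non-muscle essential light chain Myl6 was upregulated, and it was the 1 member of 10 that was called higher (0 were called lower). At 4 Hz 6 members were upregulated, the essential light chains Myl1, Myl3, Myl4, Myl6, and Myl6b and the regulatory light chain Mylpf, and 0 were downregulated. At 10 Hz no member was called in edgeR's quasi-likelihood test, and 1 had an unadjusted p under 0.05 (8.07% of all genes tested). Over all 13315 genes tested, 19.2% were called higher and 18.1% lower at 1 Hz, 27.5% higher and 23.9% lower at 4 Hz, and 0.015% higher and 0.0225% lower at 10 Hz (Benjamini-Hochberg adjusted p under 0.05). Also past an absolute log2(fold change) of 0.5 were 0, 3, and 0 members, beside 14.9%, 25.1%, and 0.0376% of all genes tested. The median log2(fold change) of the members was 0.07, 0.33, and -0.01 at 1, 4, and 10 Hz, beside 0.04, 0.06, and 0.01 for all genes tested. The 3 comparisons share the control libraries.

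The levels in these tests were CPM (counts per 1000000 after TMM scaling, not divided by length). For Myl6, the lowest, median, and highest library had 350, 409, and 418 CPM in the Control libraries, 426, 561, and 635 CPM at 1 Hz, 475, 573, and 712 CPM at 4 Hz, and 409, 444, and 513 CPM at 10 Hz. Every library at 1 Hz and 4 Hz lay above every control, and 5 of 6 did at 10 Hz. The log2(fold change) of Myl6 was 0.48 ± 0.10 (SE) at 1 Hz (adjusted p = 0.000513, edgeR), 0.53 ± 0.10 at 4 Hz (adjusted p = 0.000103, edgeR), and 0.20 ± 0.10 at 10 Hz (unadjusted p = 0.0483, adjusted p = 0.618, edgeR). In TPM the lowest, median, and highest library had 1091, 1266, and 1292 in the controls, 1354, 1414, and 1775 at 1 Hz, and 1336, 1410, and 1481 at 10 Hz, so both conditions lay wholly above the controls. At 4 Hz the values were 1157, 1403, and 1677 TPM and overlapped with the controls. Over all genes, every library lay above every control in CPM for 5.55% at 1 Hz, 12.9% at 4 Hz, and 0.774% at 10 Hz. Such shares were not computed in TPM, so the separation of Myl6 in TPM has no share of all genes beside it.

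Myl1, the fast essential light chain, had a lowest, median, and highest level of 1974, 2120, and 2477 CPM in the Control libraries, 1721, 2199, and 3545 CPM at 1 Hz, 2411, 2782, and 3159 CPM at 4 Hz, and 1657, 1787, and 2234 CPM at 10 Hz. At 4 Hz 5 of 6 libraries lay above every control, and at 10 Hz 4 of 6 lay below every control. Against the controls, the log2(fold change) of Myl1 was 0.16 ± 0.13 (SE), 0.34 ± 0.13, and -0.23 ± 0.13 for 1, 4, and 10 Hz (adjusted p = 0.358, 0.0350, and 0.695 in edgeR). Mylpf, the fast regulatory light chain, had 1185, 1422, and 1497 CPM in the Control libraries, 1148, 1466, and 2580 CPM at 1 Hz, 1569, 2030, and 2776 CPM at 4 Hz, and 1107, 1221, and 1560 CPM at 10 Hz. Every library at 4 Hz lay above every control, and the other conditions overlapped with the controls. In the same order, the log2(fold change) of Mylpf was 0.33 ± 0.17, 0.57 ± 0.17, and -0.12 ± 0.17 (adjusted p = 0.133, 0.00749, and 0.947 in edgeR).

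The embryonic light chain Myl4 had a lowest, median, and highest level of 637, 738, and 833 CPM in the Control libraries, 628, 733, and 1103 CPM at 1 Hz, 875, 953, and 1143 CPM at 4 Hz, and 691, 739, and 915 CPM at 10 Hz. All 6 libraries at 4 Hz lay above every control, with a log2(fold change) of 0.41 ± 0.12 (SE, adjusted p = 0.00483, edgeR). At 1 Hz and 10 Hz the difference was 0.16 ± 0.12 and 0.07 ± 0.12 and did not pass. Myl6b had 126, 144, and 154 CPM unstimulated and 164, 173, and 206 CPM at 4 Hz, without overlap, and its log2(fold change) was 0.33 ± 0.12 (adjusted p = 0.0235, edgeR). At 1 Hz and 10 Hz it had 99.3 to 202 CPM and 121 to 180 CPM, and differed by 0.04 ± 0.12 and -0.01 ± 0.12.

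The slow light chains were low in all conditions. Myl3 was counted with 8 to 68 estimated counts per library, and its lowest, median, and highest level was 1.69, 2.89, and 3.44 CPM in the Control libraries, 0.885, 2.56, and 4.47 CPM at 1 Hz, 3.39, 4.38, and 4.73 CPM at 4 Hz, and 1.99, 2.99, and 3.80 CPM at 10 Hz. At 4 Hz 5 of 6 libraries lay above every control, and Myl3 was upregulated with a log2(fold change) of 0.64 ± 0.23 (SE, adjusted p = 0.0234, edgeR). Myl2 had 29.8, 37.3, and 43.3 CPM in the Control libraries, 27.3, 33.7, and 51.7 CPM at 1 Hz, 36.7, 48.2, and 52.5 CPM at 4 Hz, and 29.7, 36.0, and 50.1 CPM at 10 Hz. At 4 Hz 4 of 6 libraries lay above every control, and the difference of 0.29 ± 0.15 did not pass (adjusted p = 0.103, edgeR). At 1 Hz and 10 Hz Myl2 differed by 0.0095 ± 0.15 and -0.01 ± 0.15. Myl9, the smooth muscle regulatory light chain, had 4.79, 8.80, and 11.4 CPM without stimulation and 5.57, 6.68, and 8.17 CPM at 4 Hz, where its difference of -0.37 ± 0.20 did not pass (adjusted p = 0.119, edgeR). On log2(TPM + 1), given below, Myl9 was called lower at 4 Hz.

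These calls depended on how transcript length was treated. The 8 light chains lay in the 3 shortest of 20 bins of effective transcript length, and genes of those bins had median log2(fold change) values of 0.37, 0.28, and 0.22 at 1 Hz and 0.55, 0.42, and 0.33 at 4 Hz, from the shortest bin on. At 10 Hz it was 0.03 in each of them. The median of the longest bin, which holds Mylk, was -0.10 at 1 Hz and -0.17 at 4 Hz. On log2(TPM + 1) tested with limma, all genes together had a median of -0.14 at 1 Hz, -0.21 at 4 Hz, and -0.01 for the 10 Hz condition. On that scale Myl6 at 1 Hz remained upregulated, with a difference of 0.24 (adjusted p = 0.0229, limma) or 0.39 relative to the median of all genes. None of the 6 calls at 4 Hz passed there, and their differences relative to the median were 0.24 for Myl1, 0.47 for Myl3, 0.30 for Myl4, 0.38 for Myl6, 0.21 for Myl6b, and 0.43 for Mylpf. Without centring on that median, Myl6b had -0.0019 at 4 Hz. Myl9 was downregulated at 4 Hz on this scale (-0.62, adjusted p = 0.0207, limma), or -0.41 relative to the median of all genes.

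**Figure D2:**
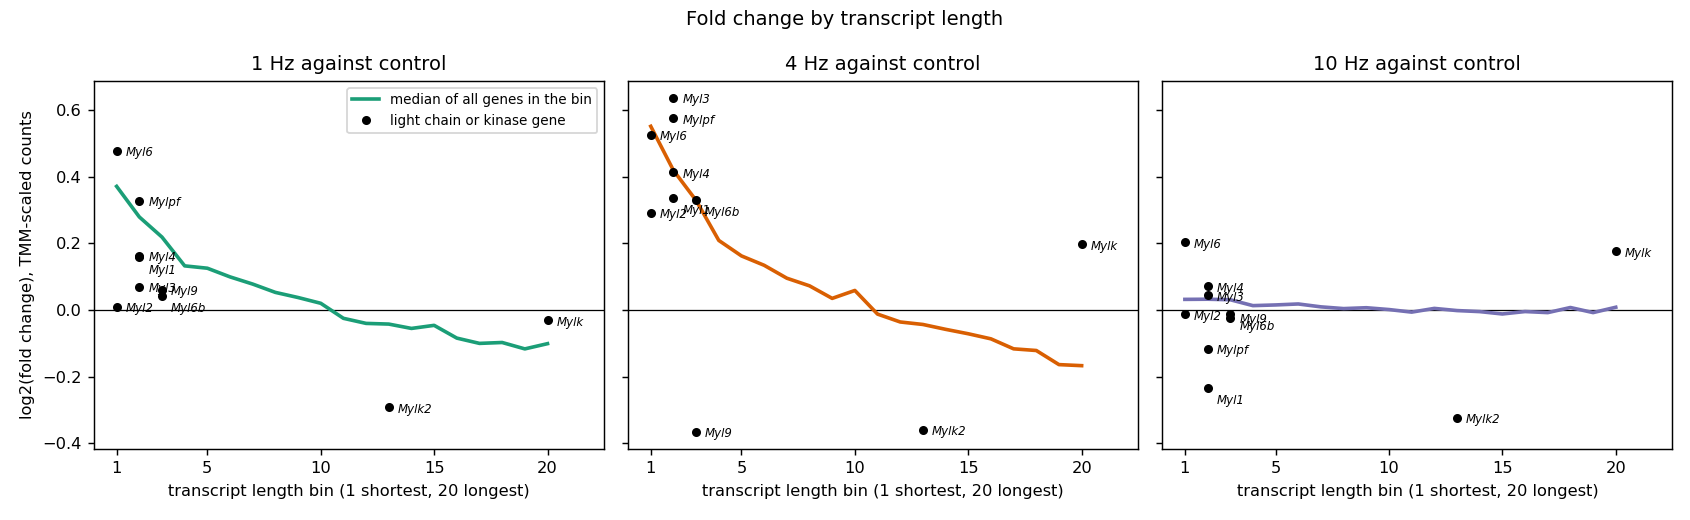
Median log2(fold change) of all genes tested in 20 bins of transcript length (line, x axis from the shortest bin 1 to the longest bin 20) and the value of each light chain and kinase gene (points) on TMM-scaled counts, for each frequency against the control. The line runs from 0.55 in bin 1 to -0.17 in bin 20 at 4 Hz and lies near 0.03 in the first 3 bins at 10 Hz, and the light chains sit in those first 3 bins.

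With offsets that remove the deviation of each library in each length bin, none of the 6 members upregulated at 4 Hz passed in edgeR, and their differences were -0.06 for Myl1, 0.25 for Myl3, 0.02 for Myl4, -0.02 for Myl6, 0.05 for Myl6b, and 0.16 for Mylpf. On the same offsets Myl2 was downregulated by 0.36 (log2 scale) at 1 Hz (adjusted p = 0.00319, edgeR) and fell by 0.25 at 4 Hz (adjusted p = 0.0279, edgeR). Myl9 fell by 0.63 at 4 Hz (adjusted p = 0.0327, edgeR), and Mylk rose by 0.38 (adjusted p = 0.00893, edgeR). Myl6 at 1 Hz had a difference of 0.14 (adjusted p = 0.191, edgeR). Without the 5 libraries of short mean transcript length, Myl6 was upregulated at 1 Hz by 0.39 (adjusted p = 0.00207, edgeR) and at 4 Hz by 0.33 (adjusted p = 0.0100), and Myl4 at 4 Hz by 0.28 (adjusted p = 0.0190), while Myl1, Myl3, Myl6b, and Mylpf at 4 Hz did not pass. Leaving out single libraries also ended the calls of Myl1, Myl3, and Myl6b at 4 Hz in 7, 3, and 4 of 12 fits, and those of Myl4, Myl6, and Mylpf in 0 of 12.

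**Figure D3:**
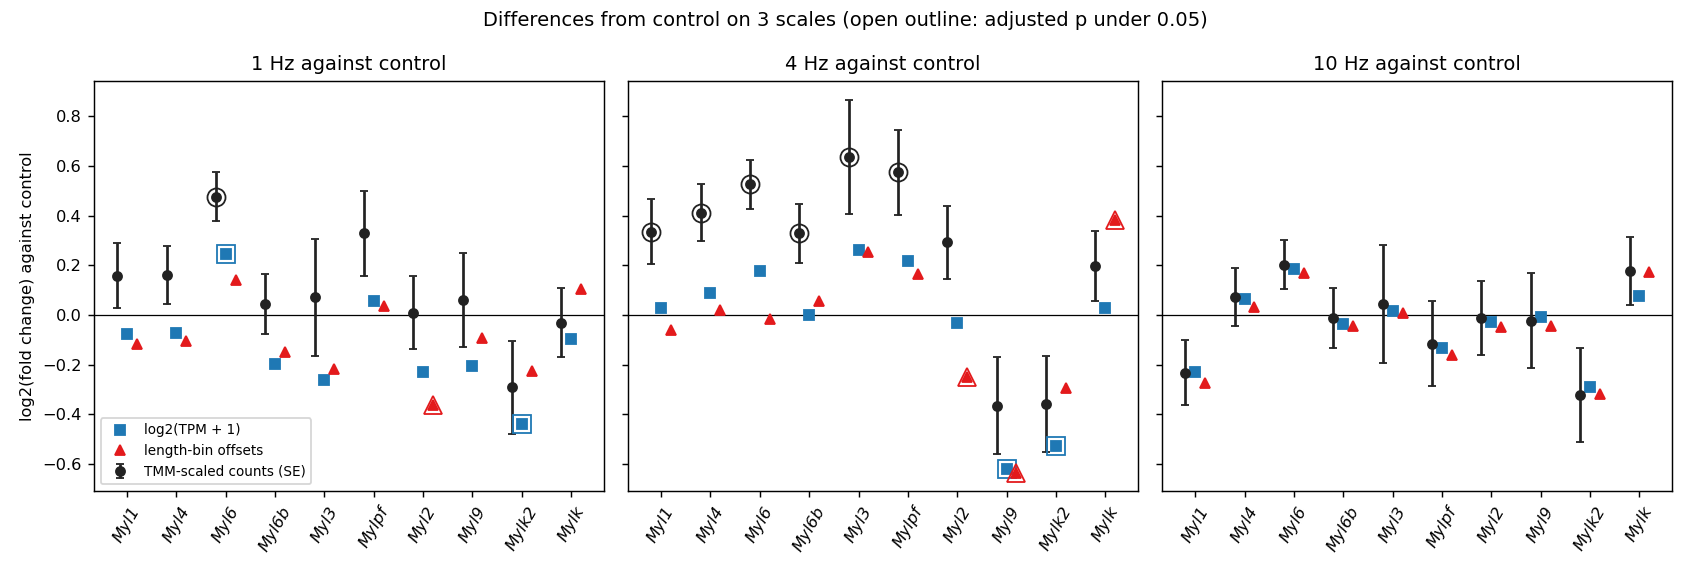
log2(fold change) of the 10 genes (x axis) against the control at 1, 4, and 10 Hz (panels) on TMM-scaled counts with the SE (black), on log2(TPM + 1) (blue), and with length-bin offsets (red), where an open outline marks an adjusted p under 0.05. At 4 Hz 6 black points are outlined against 0 of the same genes on the other scales, and at 10 Hz no point is outlined.

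The frequencies were also compared with each other in the same fit. Both fast light chains were lower at 10 Hz than at 4 Hz, and this held in each alternative run. All 6 libraries at 10 Hz lay below all 6 at 4 Hz for Myl1 and for Mylpf in CPM, with log2(fold change) values of -0.57 ± 0.13 (SE, adjusted p = 0.00124, edgeR) and -0.69 ± 0.17 (adjusted p = 0.00236, edgeR). Over all genes tested, every library at 10 Hz lay below every library at 4 Hz for 8.1%. In TPM, Myl1 ran from 4721 to 5805 at 10 Hz and from 5507 to 6495 at 4 Hz, and Mylpf from 3026 to 3820 and from 3632 to 4770, so these ranges overlapped. On log2(TPM + 1) the differences were -0.26 for Myl1 (adjusted p = 0.0129, limma) and -0.35 for Mylpf (adjusted p = 0.00598, limma), where the median of all genes was 0.20. With length-bin offsets they were -0.21 (adjusted p = 0.0188, edgeR) and -0.32 (adjusted p = 0.00626, edgeR), and without the 5 short libraries -0.42 (adjusted p = 0.00301, edgeR) and -0.39 (adjusted p = 0.00886, edgeR). Leaving out single libraries kept both calls in 12 of 12 fits. Lower levels at 10 Hz than at 4 Hz were not particular to these genes. Of 13 myotube markers, 8 were lower and 1 higher in edgeR, with a median log2(fold change) of -0.38. Of 12 myosin heavy chain genes tested, 7 were lower and 1 higher, with a median of -0.44. Of all genes tested, 24.4% were lower and 21.9% higher.

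In all, 6 members were lower at 10 Hz than at 4 Hz and 0 were higher, beside 24.4% lower and 21.9% higher of all genes tested, and 3 of them were also past 0.5, beside 21.2%. The others were Myl3 (-0.59 ± 0.24), Myl4 (-0.34 ± 0.12), Myl6 (-0.32 ± 0.10), and Myl6b (-0.34 ± 0.12), with adjusted p of 0.0417, 0.0190, 0.00929, and 0.0219 in edgeR. None of these 4 passed on log2(TPM + 1), with length-bin offsets, or without the 5 short libraries, and Myl6 turned to 0.0094 on log2(TPM + 1). Leaving out single libraries ended their calls in 9 (Myl3), 3 (Myl4), 0 (Myl6), and 5 (Myl6b) of 12 fits. Myl9 was higher at 10 Hz than at 4 Hz on log2(TPM + 1) (0.61, adjusted p = 0.0251, limma). It did not pass on TMM-scaled counts (0.34, adjusted p = 0.159, edgeR) or with length-bin offsets (0.59, adjusted p = 0.0538, edgeR). Against 1 Hz, Myl1 (-0.39 ± 0.13, adjusted p = 0.0290, edgeR) and Myl6 (-0.27 ± 0.10, adjusted p = 0.0388, edgeR) were lower at 10 Hz, beside 13.1% of all genes called lower and 14.8% called higher, and 0 members were also past 0.5, beside 10.8%. Neither passed on log2(TPM + 1) or without the 5 short libraries, and leaving out single libraries ended these calls in 5 and 7 of 12 fits. Between 4 Hz and 1 Hz 0 of the 13315 genes (0% in each direction and 0% past 0.5) were called in edgeR, while 1465 genes (11.0%) and 4 members (Myl3, Myl4, Myl6b, and Myl9) had an unadjusted p under 0.05.

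Ratios of TPM within a library do not depend on how libraries are scaled to each other, and 4 of them were compared with the control at each frequency, or 12 comparisons in all. Each p was from an exact two-sided permutation test of 6 against 6 libraries, for which 0.0022 is the smallest p, and was adjusted over the 12. The embryonic to fast ratio of the essential light chains, Myl4/Myl1, was higher at 10 Hz. Its lowest, median, and highest values were 23.2, 26.5, and 27.8% in the controls and 30.4, 31.7, and 34.7% at 10 Hz, and 24.1, 26.5, and 27.9% at 1 Hz and 23.7, 27.5, and 30.1% at 4 Hz. Every library at 10 Hz lay above every control, and the conditions at 1 Hz and 4 Hz overlapped with the controls. The difference of the mean log2 ratio was 0.29 ± 0.051 (SE) at 10 Hz (exact permutation p = 0.0022, adjusted p = 0.026), 0.0021 ± 0.054 at 1 Hz (exact permutation p = 0.97), and 0.060 ± 0.063 at 4 Hz (exact permutation p = 0.35, adjusted p = 0.41). At 10 Hz the difference was 0.26 to 0.31 on leaving out each library and passed in 12 of 12.

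**Figure D4:**
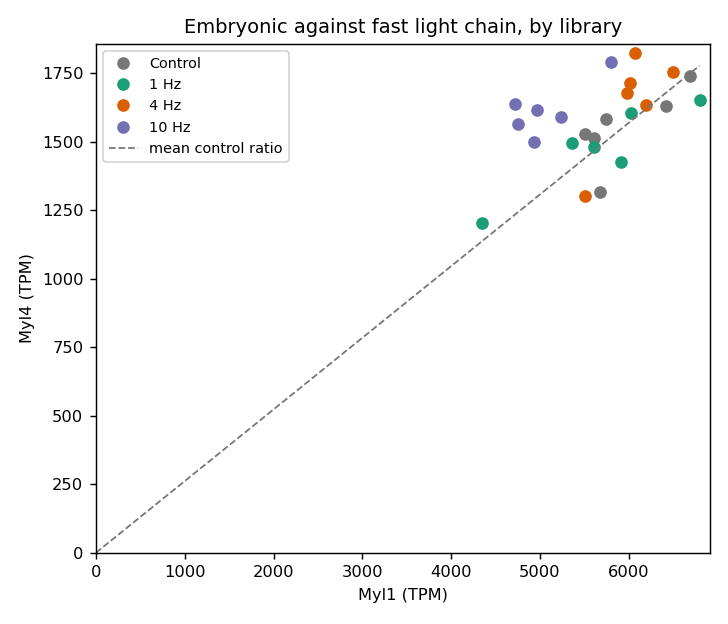
Level of the embryonic light chain Myl4 (y axis, TPM) against the fast light chain Myl1 (x axis, TPM) in each of the 24 libraries, with the mean control ratio as a dashed line. The 6 libraries at 10 Hz lie above that line, with Myl4 at 1499 to 1793 TPM and Myl1 at 4721 to 5805 TPM.

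Myl4 and Myl1 lay in the same bin of transcript length, so the length trend has the same median for both. Neither gene on its own was called at 10 Hz (log2(fold change) of 0.07 ± 0.12 for Myl4 and -0.23 ± 0.13 for Myl1). In TPM, Myl1 had a lowest, median, and highest level of 5505, 5709, and 6689 in the controls and 4721, 4946, and 5805 at 10 Hz, and Myl4 had 1316, 1557, and 1741 in the controls and 1499, 1605, and 1793 at 10 Hz, with overlap for both. Reads of Myl4 could be shared with Cdc27, a cell cycle gene on the opposite strand with a median of 953 counts, unless they were counted by strand. The library kit named in the methods of the study marks strand, but the strand setting of the counting is not given in the sources used here. Likewise Myl6 overlaps Smarcc2 (median of 680 counts) and Mylpf overlaps Tbc1d10b (median of 775 counts), while Myl1 and Mylk2 overlap no annotated gene.

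The slow to fast ratio of the regulatory light chains, Myl2/Mylpf, was lower at 1 Hz and 4 Hz. Its lowest, median, and highest values were 2.97, 3.39, and 3.51% in the controls, 2.45, 2.69, and 3.08% at 1 Hz, 2.24, 2.85, and 3.23% at 4 Hz, and 3.0, 3.59, and 4.23% at 10 Hz. At both 1 Hz and 4 Hz 5 of 6 libraries lay below every control. The mean log2 ratio differed by -0.29 ± 0.067 (SE) at 1 Hz (exact permutation p = 0.0065, adjusted p = 0.039), by -0.25 ± 0.084 at 4 Hz (exact permutation p = 0.013, adjusted p = 0.039), and by 0.11 ± 0.089 at 10 Hz (exact permutation p = 0.27, adjusted p = 0.40). Without the 5 short libraries the differences were -0.22 (exact permutation, adjusted p = 0.068) and -0.13 (adjusted p = 0.20), so neither passed. With fewer libraries the smallest p is larger, so not passing there does not show that a difference was absent. On leaving out single libraries the call ended in 4 of 12 fits at 1 Hz and 9 of 12 at 4 Hz. Myl2 lay in length bin 1 and Mylpf in length bin 2, and the part of length in this ratio was not tested.

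The slow to fast ratio of the essential light chains, Myl3/Myl1, had median values of 0.0945% (controls), 0.0890% (1 Hz), 0.110% (4 Hz), and 0.117% (10 Hz). Its mean log2 ratio differed by -0.27 ± 0.26 (SE), 0.28 ± 0.14, and 0.25 ± 0.18, with exact permutation p of 0.38, 0.041, and 0.19 and adjusted p of 0.41, 0.082, and 0.33, so none passed. The slow essential light chain thus gave no call that held over the fast one at any frequency, at counts of 8 to 68 a library. As a description of values seen first, Mylpf/Myl1 had a lowest, median, and highest value of 58.7, 59.5, and 67.3% in the controls, 58.5, 65.3, and 81.0% at 1 Hz, 60.4, 69.3, and 84.7% at 4 Hz, and 61.4, 65.3, and 68.0% at 10 Hz, with overlap throughout.

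**Figure D5:**
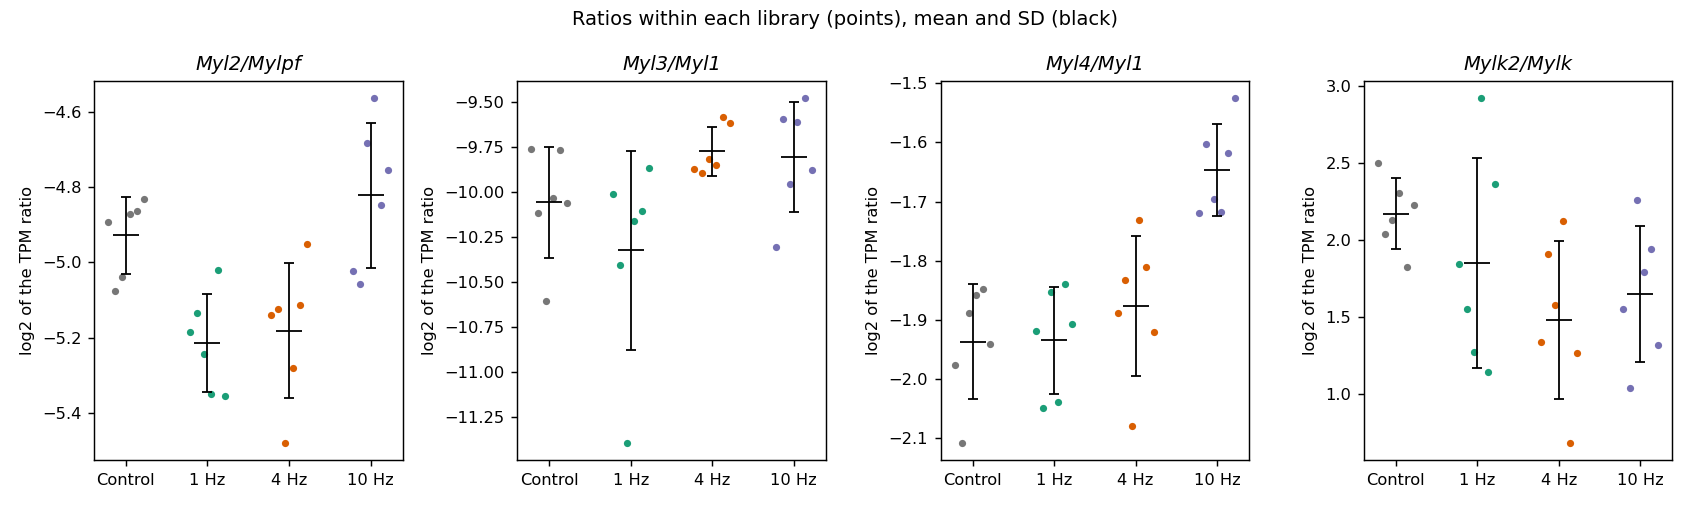
log2 of the TPM ratio of Myl2/Mylpf, Myl3/Myl1, Myl4/Myl1, and Mylk2/Mylk (panels, y axis) in the 6 libraries of each condition (points), with the mean and SD in black. For Myl4/Myl1 the 6 libraries at 10 Hz lie above all controls, and for Myl2/Mylpf 5 of 6 libraries at 1 Hz and at 4 Hz lie below all controls.

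The kinases were counted with 31 to 169 reads (Mylk2) and 37 to 107 reads (Mylk) per library. Mylk2 had a lowest, median, and highest level of 5.91, 8.34, and 10.1 CPM in the Control libraries, 3.76, 6.89, and 10.3 CPM at 1 Hz, 5.09, 6.44, and 7.86 CPM at 4 Hz, and 3.68, 6.99, and 8.78 CPM at 10 Hz. Each group overlapped with the controls, and the log2(fold change) of -0.29 ± 0.19 (SE), -0.36 ± 0.19, and -0.32 ± 0.19 did not pass at any frequency (adjusted p = 0.227, 0.120, and 0.714, edgeR). On log2(TPM + 1) Mylk2 was downregulated at 1 Hz (-0.44, adjusted p = 0.0404, limma) and 4 Hz (-0.53, adjusted p = 0.00831, limma), or -0.30 and -0.32 relative to the median of all genes. Without the 5 short libraries it fell by 0.55 at 1 Hz (adjusted p = 0.0376, edgeR). Mylk had 4.31, 4.61, and 6.24 CPM in the Control libraries, 3.78, 4.48, and 6.97 CPM at 1 Hz, 4.97, 5.44, and 6.31 CPM at 4 Hz, and 4.75, 5.47, and 6.43 CPM at 10 Hz, with differences of -0.03 ± 0.14, 0.20 ± 0.14, and 0.18 ± 0.14 that did not pass.

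The ratio of the skeletal to the smooth muscle kinase, Mylk2/Mylk in TPM, had a lowest, median, and highest value of 3.54, 4.53, and 5.64 in the controls, 2.21, 3.26, and 7.56 at 1 Hz, 1.61, 2.75, and 4.36 at 4 Hz, and 2.06, 3.19, and 4.77 at 10 Hz. At 4 Hz and at 10 Hz 4 of 6 libraries lay below every control. The mean log2 ratio differed by -0.69 ± 0.23 (SE) at 4 Hz (exact permutation p = 0.013, adjusted p = 0.039), by -0.52 ± 0.20 at 10 Hz (exact permutation p = 0.028, adjusted p = 0.068), and by -0.32 ± 0.29 at 1 Hz (exact permutation p = 0.30, adjusted p = 0.40). The call at 4 Hz ended in 10 of 12 fits on leaving out single libraries. Without the 5 short libraries the difference was -0.88 and did not pass (exact permutation, adjusted p = 0.068). That comparison lacks 4 Hz replicates 1, 3, and 4, so the smallest p it can give is larger. A weaker difference cannot be read from it. Mylk2 lay in length bin 13 and Mylk in length bin 20. Fewer cells of a type and less RNA per cell cannot be told apart in these bulk libraries, and the part of the myoblast markers in the changes at 1 Hz and 4 Hz was not tested.

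Of 24 other genes of light chain phosphorylation (among them calmodulins, other kinases, and the subunits and inhibitors of myosin phosphatase), 22 were tested. At 1 Hz 5 were upregulated and 2 downregulated, at 4 Hz 5 and 4, and at 10 Hz 0 and 0, with median log2(fold change) values of 0.12, 0.07, and 0.02. Of all genes tested, 19.2% were higher and 18.1% lower at 1 Hz, and 27.5% and 23.9% at 4 Hz. At 10 Hz the shares were 0.015% and 0.0225%, and the medians of all genes were 0.04, 0.06, and 0.01. On log2(TPM + 1), where 23 were tested, the counts were 0 and 2 at 1 Hz, beside 3.58% of all genes higher and 21.9% lower, and 0 and 7 at 4 Hz, beside 5.83% and 35.9%. With length-bin offsets they were 6 and 3 at 1 Hz, beside 18.9% and 19.2%, and 5 and 3 at 4 Hz, beside 24.1% and 25.1%. Downregulation on all 3 scales was seen for Stk17b, a kinase of the death-associated family (-0.30 ± 0.079 and -0.53 ± 0.080 at 1 Hz and 4 Hz, adjusted p = 0.00414 and 7.7e-06, edgeR). It was also seen for Ppp1cc, a catalytic subunit of protein phosphatase 1 (-0.25 ± 0.059 and -0.31 ± 0.059 at 1 Hz and 4 Hz, adjusted p = 0.00191 and 0.000113, edgeR). Dapk3, a kinase that can phosphorylate the regulatory light chain without calmodulin, was upregulated by 0.42 ± 0.11 at both frequencies (adjusted p = 0.00313 and 0.00202, edgeR), but neither call held on log2(TPM + 1) (0.24 and -0.10, adjusted p = 0.332 and 0.678, limma) or with length-bin offsets (0.25 and 0.15, adjusted p = 0.0635 and 0.251, edgeR). Pak1 rose by 0.44 ± 0.11 at 1 Hz (adjusted p = 0.00297, edgeR), and it passed with length-bin offsets but not on log2(TPM + 1) (0.24, adjusted p = 0.252, limma).

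Of 5 other light chain genes, 3 were tested. The non-muscle regulatory light chain Myl12b was upregulated at 1 Hz (0.40 ± 0.087, adjusted p = 0.000810, edgeR) and 4 Hz (0.36 ± 0.087, adjusted p = 0.00135, edgeR), and Myl12a at 4 Hz (0.26 ± 0.10, adjusted p = 0.0308, edgeR), where leaving out single libraries ended the call of Myl12a in 7 of 12 fits. The call of Myl12b at 1 Hz did not hold on log2(TPM + 1) (0.19, adjusted p = 0.223, limma) or with length-bin offsets (0.080, adjusted p = 0.614, edgeR). At 4 Hz it did not hold on either scale for Myl12b or Myl12a. With length-bin offsets Myl12b and Myl12a had -0.16 and -0.01 at 4 Hz, and Myl12a had -0.06 on log2(TPM + 1). Of 13 myosin heavy chain genes, which carry the light chains, 12 were tested, and 1 was upregulated at 1 Hz, 5 were upregulated and 2 downregulated at 4 Hz, and 1 was downregulated at 10 Hz. Of all genes tested, 19.2% were higher and 18.1% lower at 1 Hz, and 27.5% and 23.9% at 4 Hz. At 10 Hz the shares were 0.015% and 0.0225%. On log2(TPM + 1), where 11 were tested, 1 heavy chain was higher and 1 lower at 1 Hz, and 1 and 2 at 4 Hz. The shares of all genes there were 3.58% and 21.9% at 1 Hz, and 5.83% and 35.9% at 4 Hz. With length-bin offsets the counts were 2 and 0 at 1 Hz, beside 18.9% and 19.2% of all genes. At 4 Hz they were 6 and 1, beside 24.1% and 25.1%. Myh7b, a heavy chain of the slow and cardiac family, was upregulated at 1 Hz (0.50 ± 0.11, adjusted p = 0.00120, edgeR) and 4 Hz (0.84 ± 0.11, adjusted p = 1.5e-06, edgeR) and passed on all 3 scales. At 4 Hz the cardiac Myh6 rose by 0.53 ± 0.12 (adjusted p = 0.000839, edgeR), and Myh2 and the non-muscle Myh9 fell by 0.66 ± 0.19 and 0.49 ± 0.17 (adjusted p = 0.00670 and 0.0208, edgeR). Myh6 did not pass on log2(TPM + 1) (0.31, adjusted p = 0.104, limma), Myh2 did not pass at 4 Hz with length-bin offsets (-0.47, adjusted p = 0.104, edgeR), and Myh9 passed on all 3 scales. At 10 Hz Myh2, the heavy chain of fast oxidative fibers, fell by 1.07 ± 0.20 (adjusted p = 0.0380, edgeR), and this call ended in 11 of 12 fits on leaving out single libraries, with adjusted p of 0.044 to 0.13 (edgeR). On log2(TPM + 1) its difference was -0.999 (adjusted p = 0.150, limma). It was -1.04 with length-bin offsets (adjusted p = 0.0819, edgeR), -1.08 without a filter (adjusted p = 0.0884, edgeR), and -1.06 with the replicate block (adjusted p = 0.103, edgeR).

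The 3 genes whose log2 CPM was most like that of each member over the 24 libraries are named next. These correlations share libraries, depth, and the length trend and are given as descriptions. For Myl1 they were Myoz2 (r = 0.985), the fast troponin C gene Tnnc2 (r = 0.982), and the slow troponin I gene Tnni1 (r = 0.977). For Myl4 they were Cav3 (r = 0.963), Fth1 (r = 0.950), and the cardiac troponin T gene Tnnt2 (r = 0.946), and for Myl6b they were Tpm2 (r = 0.922), Cacng1 (r = 0.918), and Tnnt1 (r = 0.917). For Myl2 they were Tnni1 (r = 0.879), 2310043L19Rik (r = 0.879), and Ctxn3 (r = 0.867), and for Myl3 they were Slc30a2 (r = 0.842), the myoglobin gene Mb (r = 0.833), and Acsl6 (r = 0.816).

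Mylpf was most like Dbi (r = 0.980) and the mitochondrial respiration genes Ndufb8 (r = 0.973) and Atp5c1 (r = 0.972), and Myl6 was most like Cox6a1 (r = 0.968), 1110038B12Rik (r = 0.948), and Crip1 (r = 0.947). For Myl9 they were Nacc2 (r = 0.844) and the actin cytoskeleton genes Wdr1 (r = 0.836) and Palld (r = 0.817). The kinases had lower values, with Gpd1 (r = 0.788), Cd24a (r = 0.774), and the myosin chaperone gene Unc45b (r = 0.769) for Mylk2 and Nav2 (r = 0.682), Nbea (r = 0.672), and Hdac4 (r = 0.660) for Mylk. Among the members, Myl1 and Mylpf had r = 0.946 and Myl4 and Myl6b had r = 0.924, while Myl9 had r = -0.644 with Myl1 and r = -0.736 with Myl2 over the same 24 libraries.

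The members lie on 8 chromosomes in the GRCm39 annotation, all as protein-coding genes. Myl6 (chr10:128320267-128330014) and Myl6b (chr10:128330020-128334772) are neighbours on the minus strand, 5 bases apart, and their log2 CPM had r = 0.449 over the 24 libraries. The positions of the other light chains are chr1:66963454-66984642 for Myl1, chr5:122238848-122251545 for Myl2, chr9:110570929-110599396 for Myl3, chr11:104440903-104486603 for Myl4, chr7:126807207-126813470 for Mylpf, and chr2:156617084-156623579 for Myl9. The kinases Mylk2 and Mylk lie at chr2:152753232-152766628 and chr16:34565580-34822790.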

How the data were processed

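RNA of the 24 libraries was selected by poly(A), and per the labels some samples of low input had ribosomal RNA removed instead, without saying which. Reads were processed by the authors in nf-core/rnaseq on GRCm39 with the Ensembl annotation. The processing notes of the submitters also name STAR, Salmon, BWA 0.7.12-r1039, bedtools 2.25.0, and the builds mm10 and hg19, with no role given there. The methods of the study give BWA-MEM for mapping to GRCm39 and another version of bedtools for quality metrics. The deposited estimated counts per gene are as salmon gave them, not normalized, and 6.15% of them are not whole (tolerance 0.001). The TPM values were deposited as the authors' pipeline gave them, divided by transcript length and scaled to 1000000 per library. The experiment with shorter daily sessions was not analysed here.

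Estimated counts were rounded, filtered (filterByExpr, minimum count 10, minimum total 15), and scaled by TMM, and 1 fit of all 24 libraries was tested by edgeR 4.0.16 (quasi-likelihood F test, robust, R 4.3.3) with Benjamini-Hochberg adjustment over 13315 genes. A gene was called at an adjusted p under 0.05. The biological coefficient of variation was 14.8%. On simulated data for 4 Hz against the control (13315 genes), edgeR recovered 47% of 100 genes changed by 0.5 and 84% of 100 changed by 1 (log2 scale). No other gene was changed there and no length trend was built in, while 6842 genes were called in the measured comparison. The recovered shares therefore need not hold for the measured data. Ratios of TPM were compared by exact two-sided permutation tests over libraries. All 24 libraries differed from each other (highest r of 0.990), and p-values measure the spread between these libraries.

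The alternatives were RLE and upper-quartile factors, no filter and a stricter one (at least 50 counts in 6 or more libraries), a fit of just the 2 groups in question, the replicate number as a block, DESeq2 1.42.0 with and without apeglm 1.24.0, limma 3.58.1 on log2(TPM + 1) and log2(TPM + 0.1) for the 13422 genes that reached 1 TPM in 6 libraries, offsets by 20 length bins, an added threshold of 0.5 on the absolute log2(fold change), and leaving out each library. Leaving out 5 libraries of short mean transcript length was added after seeing the data.

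The members, the gene lists, and the ratios were chosen with earlier results of these data known. The genes named are all members, the 2 changed genes with the smallest p in each direction of each list other than the marker lists in each comparison with the control, and the 3 genes most like each member by Pearson r. A gene that this rule names at 4 Hz is not reported here. Start sites and positions came from GENCODE M39 on GRCm39, and the genome was searched in 250 bases before the start of the canonical transcript. Other start sites of the same genes were not searched.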

Additional observations from a re-analysis of the deposited data

Results flagged for a closer look

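Of 56 groups of 6 libraries examined (10 genes in TPM and 4 log2 ratios, each in 4 conditions), 5 held 1 library whose gap to the nearest other, divided by the range of the group, was over Dixon's 95% critical value, where chance gives about 1 in 20. Myl4 was lowest in 4 Hz replicate 3 (1303 TPM against 1636 to 1826, gap over range 0.637). Myl6 was lowest in control replicate 6 (1091 TPM against 1247 to 1292, gap over range 0.779), and without that library it remained called at 1 Hz and 4 Hz in edgeR. Myl6b was highest in 10 Hz replicate 3 (301 TPM against 222 to 250, gap over range 0.644). Mylk was highest in 4 Hz replicate 5 (2.30 TPM against 0.693 to 1.08, gap over range 0.762), and without that library the Mylk2/Mylk difference at 4 Hz was -0.53. The log2 ratio Myl3/Myl1 was lowest in 1 Hz replicate 3 (-11.39 against -10.40 to -9.87, gap over range 0.648).

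Differences between frequencies passed the edgeR test of the difference itself for 6 members at 10 Hz against 4 Hz, with log2 values of -0.57 (Myl1), -0.59 (Myl3), -0.34 (Myl4), -0.32 (Myl6), -0.34 (Myl6b), and -0.69 (Mylpf), and for 2 members at 10 Hz against 1 Hz, with -0.39 (Myl1) and -0.27 (Myl6). The ratios were compared between frequencies in 12 further comparisons chosen after seeing the data, by the exact permutation test adjusted over them, and 5 passed. Myl4/Myl1 was higher at 10 Hz than at 1 Hz by 0.29 and than at 4 Hz by 0.23 (both exact permutation p = 0.0022, adjusted p = 0.013), with 6 of 6 libraries above all of the other condition. Myl2/Mylpf was higher at 10 Hz than at 1 Hz by 0.39 (exact permutation p = 0.0065, adjusted p = 0.019) and than at 4 Hz by 0.36 (exact permutation p = 0.011, adjusted p = 0.026). Myl3/Myl1 was higher at 4 Hz than at 1 Hz by 0.55 (exact permutation p = 0.0065, adjusted p = 0.019), where 1 Hz replicate 3 was the low library named above.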

How the results depend on the processing

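The lower levels of Myl1 and Mylpf at 10 Hz than at 4 Hz, the upregulation of Myl6 at 1 Hz outside the length-bin offsets and the added threshold of 0.5, and the higher Myl4/Myl1 at 10 Hz outside the replicate block kept their calls in every alternative run. With an added threshold of 0.5 on the absolute log2(fold change), 0 members passed at 1 Hz, 3 at 4 Hz, 0 at 10 Hz against 1 Hz, and 3 at 10 Hz against 4 Hz. On log2(TPM + 1) and log2(TPM + 0.1) 2 members passed at 1 Hz (1 higher and 1 lower), 2 at 4 Hz (0 higher), 0 at 10 Hz against 1 Hz, and 3 at 10 Hz against 4 Hz (1 higher and 2 lower). With length-bin offsets 3 passed at 4 Hz (1 higher and 2 lower), 1 at 10 Hz against 1 Hz (Myl2, higher), and 2 at 10 Hz against 4 Hz. Without the 5 short libraries 2 passed at 1 Hz, 2 at 4 Hz, 0 at 10 Hz against 1 Hz, and 2 at 10 Hz against 4 Hz. Without a filter, or with only the 2 groups compared, 0 passed at 10 Hz against 1 Hz. Directions turned on log2(TPM + 1) at 1 Hz for Myl1 (-0.075), Myl2 (-0.23), Myl3 (-0.26), Myl4 (-0.073), Myl6b (-0.20), and Myl9 (-0.21), at 4 Hz for Myl2 (-0.035), Myl6b (-0.0019), Dapk3 (-0.10), and Myl12a (-0.057), and at 10 Hz against 4 Hz for Myl6 (0.0094). With log2(TPM + 0.1) they were -0.075, -0.23, -0.33, -0.073, -0.20, and -0.23, then -0.035, -0.0020, -0.10, and -0.057, and 0.0094. With length-bin offsets they turned at 1 Hz for Myl1 (-0.12), Myl2 (-0.36), Myl3 (-0.22), Myl4 (-0.11), Myl6b (-0.15), Myl9 (-0.095), and Mylk (0.11), at 4 Hz for Myl1 (-0.059), Myl2 (-0.25), Myl6 (-0.016), Myl12b (-0.16), and Myl12a (-0.012), for Myl6 at 10 Hz against 1 Hz (0.029), and at 10 Hz against 4 Hz for Myl4 (0.012) and Myl6 (0.18). Without the 5 short libraries they turned at 1 Hz for Myl1 (-0.13), Myl2 (-0.27), Myl3 (-0.40), Myl4 (-0.089), Myl6b (-0.18), Mylpf (-0.042), and Mylk (0.12). Myl2 at 1 Hz, at 0.0095 in the fit reported, had -0.0022 with RLE factors, -0.023 without a filter, -0.0048 with DESeq2, and -0.0034 with apeglm. With ratios of counts in place of TPM, Myl3/Myl1 at 4 Hz (0.33, adjusted p = 0.042) and Mylk2/Mylk at 10 Hz (-0.53, adjusted p = 0.048) passed the exact permutation test. Without the 5 short libraries Myl2/Mylpf had -0.22 and -0.13 at 1 Hz and 4 Hz and Mylk2/Mylk had -0.88 at 4 Hz. None passed in these smaller groups, where the smallest p of the exact permutation test is larger. The cause of these turns was not tested. Same-numbered libraries of different conditions had correlations of their deviations from -0.33 to 0.24. With so few pairs these values cannot show whether a shared number marks a pairing, and the labels do not say. With the replicate block Myl2 at 1 Hz had -0.0093, 1 member passed at 10 Hz against 1 Hz, and no other count of members moved by over 1.5 times. The ratio differences of -0.29 and -0.25 (Myl2/Mylpf at 1 Hz and 4 Hz), 0.29 (Myl4/Myl1 at 10 Hz), and -0.69 (Mylk2/Mylk at 4 Hz) each had the smallest p that 6 pairs allow in the exact sign-flip permutation test of the replicate block (0.031), and the adjusted p over the 12 was 0.094. On leaving out single libraries, 1 to 2 members passed at 1 Hz (2 without 1 Hz replicate 4, where Mylk2 had -0.49), 3 to 7 at 4 Hz (3 without control replicate 2 or 3), 0 to 0 at 10 Hz, 0 to 4 at 10 Hz against 1 Hz (0 without 1 Hz replicate 4 or 6 or 10 Hz replicate 2, 4, or 6, 1 without 10 Hz replicate 1, and 4 without 1 Hz replicate 5), and 3 to 7 at 10 Hz against 4 Hz (3 without 4 Hz replicate 4 or 10 Hz replicate 2 or 4). Myl1 at 4 Hz lost its call without control replicate 2, 3, 4, or 5 or 4 Hz replicate 1, 3, or 4 (0.26 to 0.37 over all 12), Myl3 without control replicate 2 or 3 or 4 Hz replicate 3 (0.52 to 0.71), and Myl6b without control replicate 2, 3, or 5 or 4 Hz replicate 4 (0.26 to 0.35), while Myl9 passed without control replicate 6 (-0.50) and Myh9 lost its call without control replicate 5 (-0.44). Myl12a lost its call without control replicate 2, 3, 4, or 5 or 4 Hz replicate 1, 3, or 4 (0.22 to 0.30), and Myh2 at 10 Hz lost it without any library other than control replicate 5 (-1.11 to -0.98). At 10 Hz against 4 Hz, Myl3 lost its call without any library other than 4 Hz replicate 2 or 10 Hz replicate 3 or 5 (-0.69 to -0.48), Myl4 without 4 Hz replicate 4 or 10 Hz replicate 2 or 4 (-0.39 to -0.28), and Myl6b without 4 Hz replicate 4 or 10 Hz replicate 1, 2, 4, or 6 (-0.42 to -0.28). At 10 Hz against 1 Hz, Myl1 lost it without 1 Hz replicate 4 or 6 or 10 Hz replicate 2, 4, or 6 (-0.46 to -0.24), and Myl6 without 1 Hz replicate 3, 4, or 6 or 10 Hz replicate 1, 2, 4, or 6 (-0.32 to -0.22). Directions turned within ranges of -0.0015 to 0.22 for Myl1, -0.13 to 0.068 for Myl2, -0.13 to 0.22 for Myl3, -0.094 to 0.12 for Myl6b, -0.11 to 0.16 for Myl9, and -0.20 to 0.044 for Mylk at 1 Hz, and of -0.12 to 0.044 for Myl2, -0.054 to 0.14 for Myl3, -0.095 to 0.031 for Myl6b, and -0.14 to 0.067 for Myl9 at 10 Hz. The ratio differences ran at 1, 4, and 10 Hz from -0.32 to -0.26, -0.30 to -0.19, and 0.055 to 0.15 for Myl2/Mylpf (lost at 1 Hz without control replicate 1, 4, 5, or 6, and at 4 Hz without control replicate 1, 3, 4, 5, or 6 or 4 Hz replicate 1, 3, 4, or 5), from -0.38 to -0.053, 0.17 to 0.34, and 0.14 to 0.35 for Myl3/Myl1, from -0.032 to 0.025, 0.026 to 0.10, and 0.26 to 0.31 for Myl4/Myl1, and from -0.53 to -0.18, -0.82 to -0.53, and -0.64 to -0.40 for Mylk2/Mylk (lost at 4 Hz without any library other than 4 Hz replicate 2 or 4, and passed at 10 Hz without 10 Hz replicate 3). Depth limits Myl3, Mylk, and Mylk2 most, at 8 to 169 counts a library.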

Other observations

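The marker lists of other cell types moved as follows on TMM-scaled counts, in edgeR. Beside them, 19.2% of all genes tested were higher and 18.1% lower at 1 Hz, and 27.5% and 23.9% at 4 Hz. Of 13 myotube markers, 0 were higher and 1 lower at 1 Hz, and 2 higher and 1 lower at 4 Hz. The lower one was Myog at both, with log2(fold change) of -1.34 ± 0.073 and -1.47 ± 0.073 (adjusted p = 1.2e-12 and 1.5e-13, edgeR). Its mean level was 648 TPM in the controls, 221 TPM at 1 Hz, 188 TPM at 4 Hz, and 555 TPM at 10 Hz. Of 6 myoblast markers, 1 was higher and 3 lower at 1 Hz, and 3 higher and 3 lower at 4 Hz. They moved in both directions. Lower at both frequencies were Pax7, Cdh15, and the myogenic factor Myod1, whose mean level was 193 TPM in the controls, 63.5 TPM at 1 Hz, 46.0 TPM at 4 Hz, and 168 TPM at 10 Hz. Higher at both was the myogenic factor Myf5, with log2(fold change) of 1.32 ± 0.13 and 1.17 ± 0.13 (adjusted p = 2.7e-08 and 9.2e-08, edgeR), and Sdc4 and Itga7 were higher at 4 Hz (log2(fold change) of 0.22 ± 0.065 and 0.20 ± 0.066, adjusted p = 0.00552 and 0.0152, edgeR), although their mean TPM was not above that of the controls. Of 6 tested cell cycle markers, 1 was higher and 0 lower at 1 Hz, and 1 higher and 2 lower at 4 Hz. Of 6 tested fibroblast markers, 2 were higher and 1 lower at both frequencies, and of 6 tested smooth muscle markers, 3 were higher and 0 lower at 1 Hz and 1 higher and 1 lower at 4 Hz. Of 4 tested cardiac markers, 0 were called at 1 Hz and 1 was higher at 4 Hz. Against the control, 0 marker genes were called at 10 Hz. On log2(TPM + 1), 0 myotube markers were higher and 3 lower at 1 Hz, and 0 higher and 2 lower at 4 Hz. Smooth muscle markers had 0 and 0 there at 1 Hz, and 0 and 2 at 4 Hz. Myoblast markers had 1 and 3 at both frequencies. Of all genes on that scale, 3.58% were higher and 21.9% lower at 1 Hz, and 5.83% and 35.9% at 4 Hz. With length-bin offsets, myotube markers had 0 and 3 at 1 Hz, beside 18.9% and 19.2% of all genes. At 4 Hz they had 3 and 1, beside 24.1% and 25.1%. The parts of these markers in the light chain values were not tested.

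The summed level of the essential light chains was 8506 to 9802 TPM in the controls, 7491 to 10071 TPM at 1 Hz, 8169 to 9955 TPM at 4 Hz, and 7949 to 9386 TPM at 10 Hz, and the 4 conditions overlapped. The regulatory members Mylpf, Myl2, and Myl9 were summed without Myl12a and Myl12b. Their summed level was 3415 to 4088 TPM in the controls and 3138 to 5008, 3748 to 4915, and 3169 to 3979 TPM at 1, 4, and 10 Hz, also with overlap.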
